A study of Mus musculus with 18 samples.

Results

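The AP-1 and immediate early factors were followed as 10 genes in cultured mouse marrow stromal cells. They are the FOS family (Fos, Fosb, Fosl1 and Fosl2), the JUN family (Jun, Junb and Jund), Atf3, Egr1 and Ier2, chosen by name, and all 10 were found among the 27179 genes of the table. RNA was sequenced from 18 cultures of primary bone marrow MSCs of C57BL6 mice, with 6 libraries in each of 3 groups. No transgene is named for any group, and no added agent beyond the culture medium. According to the methods, the medium used to expand MSCs held fetal bovine serum, basic FGF, EGF, heparin and hydrocortisone. The medium of the cultures sequenced is not stated separately. Young MSCs came from mice of 6 weeks and Old MSCs from mice of 18 to 24 months, each grown without a second cell layer for 7 days. Rejuvenated Old MSCs were old cells kept for 7 days beside young MSCs, with a porous membrane between them that lets soluble factors but not cells pass. Old cells grown beside other old cells were not analysed here, so the presence of a second cell layer and the age of its donors cannot be told apart. How many mice stood behind the replicates of a group, and whether they were pooled, is not given in the sources used here, so p-values measure the spread between these cultures.

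AP-1 is a dimer of basic leucine zipper proteins. A FOS protein pairs with a JUN protein, while JUN proteins also pair with each other and with ATF proteins, and the composition of the pair sets which DNA sites are bound and how strongly. Fos, Fosb, Jun, Junb, Atf3, Egr1 and Ier2 are immediate early genes, which are transcribed within minutes of a growth factor or stress signal without new protein synthesis, and whose mRNAs decay quickly. Fosl1 (FRA-1) and Fosl2 (FRA-2) follow more slowly and are themselves AP-1 targets, and Jund is expressed more steadily. In stromal and bone cells, AP-1 proteins act in proliferation, matrix remodelling and osteoblast differentiation.

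The deposited values are normalized counts, the reads of a gene divided by 1 size factor per library, and the libraries held 22936251 to 29559194 reads on genes. The marker genes bear on every comparison with Young MSCs. The MSC markers Cd44, Ly6a, Itgb1, Pdgfra and Pdgfrb were read in all 18 libraries. Of 13 MSC markers, however, 5 were higher and 6 lower without overlap in Young against Old MSCs, with Thy1 and Nt5e higher, Eng, Lepr and Cxcl12 lower, and Thy1 at only 0 to 3.23 in Old libraries. The 13 markers summed to 349500 to 375824 normalized counts in Young MSCs, 472818 to 499408 in Old MSCs and 463498 to 497203 in Rejuvenated Old MSCs. Ptprc (CD45) and the macrophage receptor Adgre1 were at 0 in every Young library, but lay at 162 to 208 and 243 to 333 in Old and at 122 to 171 and 218 to 325 in Rejuvenated Old MSCs. The 14 blood and macrophage markers summed to 7834 to 8123 in Young, most of it Cd34 (6787 to 7191), to 16562 to 20613 in Old and to 16615 to 20208 in Rejuvenated Old MSCs. The methods name male donors, yet Uty was at 0 in all 6 Young libraries, against 571 to 719 in Old and 493 to 675 in Rejuvenated Old MSCs, and Xist was low in all groups, at 21.2 to 41.2 in Young MSCs. The Young libraries thus stood apart in more than age, and donor age, these differences and the cells' culture history cannot be told apart in any comparison with them. Between Rejuvenated Old and Old MSCs the marker sums overlapped, but some single markers did not. Of the 13 MSC markers 2, Ly6a and Cxcl12, were higher without overlap in Rejuvenated Old MSCs and 4 lower, among them Col1a1, and of the 14 blood and macrophage markers Itgam was higher and Cd68 lower. Rejuvenated Old replicate 1 stood apart from its group in a pair of markers that were high in Young MSCs, with Cd34 at 402 against 24.2 to 41.9 in the other 5 libraries, and Thy1 at 21.6 against 0 to 0.951. The part of this library and of these markers in the results was not tested beyond the values given without it. In such bulk RNA, fewer cells of a type and less RNA per cell cannot be told apart.

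The promoters of Fos and Junb, which rose in co-culture, and of Atf3, which did not pass the test, are shown because all of them hold TGACG, the core of the cyclic AMP response element bound by CREB and ATF proteins. The letters are the 250 bases before the start in RefSeq GRCm38.p6 (mm10), written 5′ to 3′ on the gene's own strand, and capitals mark TGACG on either strand (CGTCA where it lies on the other strand) and the TATA box TATAAA.
Fos, chr12:85473640-85473889, plus strand: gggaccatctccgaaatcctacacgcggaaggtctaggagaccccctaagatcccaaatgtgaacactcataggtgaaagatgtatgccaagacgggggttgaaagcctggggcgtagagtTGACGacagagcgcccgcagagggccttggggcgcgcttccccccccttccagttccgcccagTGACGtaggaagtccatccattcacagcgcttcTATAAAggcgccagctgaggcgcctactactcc
Junb, chr8:84978749-84978998, minus strand: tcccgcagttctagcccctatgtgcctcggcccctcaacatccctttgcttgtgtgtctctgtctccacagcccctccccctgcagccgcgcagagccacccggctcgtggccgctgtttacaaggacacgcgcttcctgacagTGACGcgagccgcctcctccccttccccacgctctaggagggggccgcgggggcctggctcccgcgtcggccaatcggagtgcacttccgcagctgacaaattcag
Atf3, chr1:191183334-191183583, minus strand: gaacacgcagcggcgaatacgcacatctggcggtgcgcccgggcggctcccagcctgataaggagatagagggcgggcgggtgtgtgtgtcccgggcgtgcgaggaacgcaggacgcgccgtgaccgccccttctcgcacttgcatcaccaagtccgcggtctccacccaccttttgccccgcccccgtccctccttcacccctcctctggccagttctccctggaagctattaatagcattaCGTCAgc

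In the Fos promoter, TGACG began 129 and 66 bases before the start and TATAAA 33 bases before it. The Junb promoter held 1 TGACG, 106 bases before the start, and the Atf3 promoter 1 on the other strand, within the last 7 bases. Among the 7 members with a promoter in the RefSeq table, TGACG was also found for Fosb, where the window runs into the gene as GENCODE annotates it and the motif lies there, and was not among the letters of the Fosl2, Jun and Jund windows. Of 32851 promoters of the same length, 17.8% held TGACG and 12.4% held TATAAA on either strand. Neither TGANTCA, the consensus AP-1 site, held by 6.75% of all promoters, nor the serum response (CArG) box, held by 1.47%, was found among the letters of the 7 windows. Variants of these patterns and sites farther upstream were not searched, so such sites may be present. The RefSeq start of Jund lies upstream of that of GENCODE. Fosl1, Ier2 and Egr1 had no entry. These matches describe letters only, and the motif was present both in members that rose and in members that did not pass the test.

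Whether these genes differed between old cells kept beside young cells and old cells grown alone was read from Rejuvenated Old against Old MSCs. As said above, the presence of a second cell layer and the age of its donors cannot be told apart here. In co-culture 5 members rose, namely Fosl1, Fos, Ier2, Jund and Junb, by 1.13-fold to 1.74-fold, and none fell. In the test used throughout, limma on log2(normalized count + 1) with p adjusted by the Benjamini-Hochberg method over 14353 genes, 5 of 10 members were higher, where 21.0% of all genes tested were higher and 20.6% lower. No member was lower by edgeR or DESeq2 either, and 1 member, Jun, was lower at an unadjusted p under 0.05. Over the 10 members the median log2 fold change was 0.16, and over all genes tested it was 0.0081. The median of absolute values was 0.157 for the members and 0.146 for all genes tested, so their typical size of change was similar. The 6 Rejuvenated Old libraries did not overlap the 6 Old libraries for 3 members, Fos, Fosl1 and Ier2, where 22.0% of all genes tested did not overlap. Without Rejuvenated Old replicate 1, the library that stood apart in Cd34 and Thy1, the same 5 members were higher and none lower, with log2 fold changes of 0.81 for Fosl1, 0.67 for Fos, 0.52 for Ier2, 0.24 for Jund and 0.16 for Junb (adjusted p up to 0.006888, limma).

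**Figure D1:**
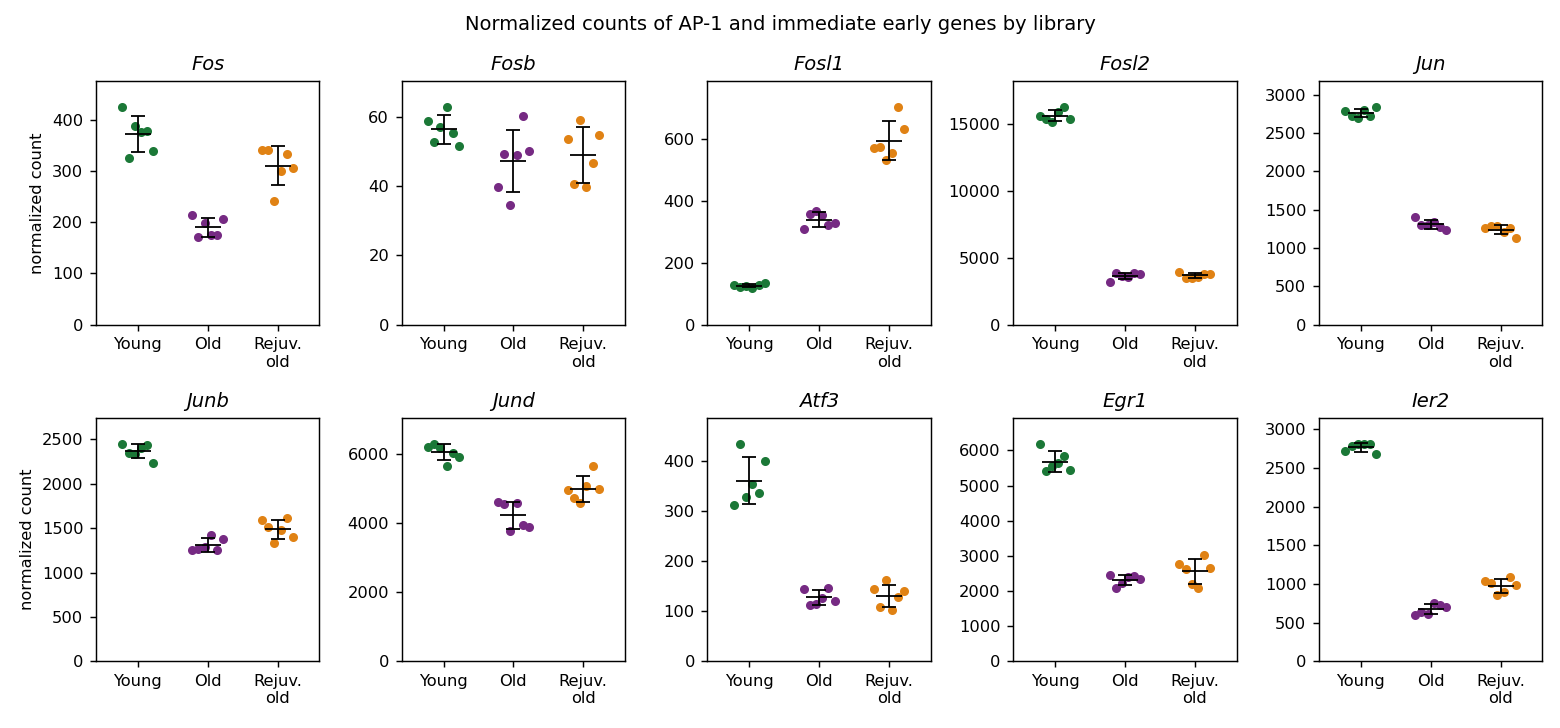
Normalized counts (y axes, from 0, own scale per gene) of the 10 members in each library (points), with the mean and SD of 6 libraries (black), for Young, Old and Rejuvenated Old MSCs. Fos, Fosl1 and Ier2 show no overlap between Old and Rejuvenated Old libraries, and Fosl1 is the member whose Young libraries, at 119 to 136, lie below all others.

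For each member and group, the highest and lowest of the 6 libraries were set against the others, and no library stood apart by Dixon's gap test in any of these 30 sets.

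Fosl1 (gene number 14283, chromosome 19, 5447698 to 5455938 on the plus strand) encodes FRA-1, a FOS family protein without a strong activation domain of its own that acts through its JUN partner. Its normalized count was lowest at 119, median 126 and highest at 136 in Young MSCs, 311, 341 and 368 in Old MSCs, and 534, 573 and 704 in Rejuvenated Old MSCs. All 3 groups were separate, in the order Young, Old, Rejuvenated Old, so that co-culture set Fosl1 farther from the Young level. The co-culture log2 fold change was 0.80 (standard error (SE) 0.07, adjusted p = 2.83e-09, limma), or 1.74-fold, larger in size than that of 95.9% of all genes tested. Ccdc85b overlaps Fosl1 on the opposite strand, and the strand setting of the counting is not stated.

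Fos (gene number 14281, chromosome 12, 85473890 to 85477274, plus strand) encodes c-FOS, the classic immediate early partner of JUN. It was read at 326, 377 and 424 normalized counts (lowest, median and highest) in Young MSCs, 170, 187 and 214 in Old MSCs, and 241, 319.5 and 342 in Rejuvenated Old MSCs. Every Rejuvenated Old library lay above every Old library, while 3 of its group also reached into the Young range. Fos was 1.62-fold higher in Rejuvenated Old than in Old MSCs (log2 fold change 0.70, SE 0.09, adjusted p = 1.209e-06, limma).

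Ier2 (gene number 15936, chromosome 8, 84661331 to 84662852, minus strand) encodes a small nuclear protein that is induced alongside Fos and Egr1. Its normalized count ran from 2680 to 2814 in Young (median 2799), from 600.02 to 759 in Old (median 669.7) and from 854 to 1092 in Rejuvenated Old MSCs (median 997). None of the groups overlapped, and the Rejuvenated Old libraries lay between the others, nearer to Old. The rise was 1.46-fold (log2 fold change 0.54, SE 0.06, adjusted p = 1.646e-07, limma).

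Jund and Junb rose less, and their groups overlapped. Jund (gene number 16478, chromosome 8, 70697739 to 70700616, plus strand) encodes the steadily expressed JUN protein and had 3779, 4248 and 4610 normalized counts in Old and 4568, 4969 and 5646 in Rejuvenated Old MSCs (lowest, median and highest). Only the lowest Rejuvenated Old library entered the Old range, and the log2 fold change was 0.24 (SE 0.05, adjusted p = 0.0009057, limma). Junb (gene number 16477, chromosome 8, 84976909 to 84978748, minus strand), whose product can restrain or replace c-JUN, had 1252, 1277 and 1425 in Old and 1337, 1496 and 1616 in Rejuvenated Old MSCs, with a log2 fold change of 0.18 (SE 0.05, adjusted p = 0.002425, limma). Prdx2 overlaps Junb and Gm11175 overlaps Jund on the opposite strand. Of the members, 3 lie on chromosome 8, with 314056 bases between Ier2 and Junb, and the median log2 fold change of the genes tested on that chromosome was 0.0054 in this comparison.

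The remaining 5 members did not pass the test in this comparison. Jun (gene number 16476, chromosome 4, 95049036 to 95052222, minus strand), which encodes c-JUN, had 1235 to 1410 normalized counts in Old and 1128 to 1288 in Rejuvenated Old MSCs, a log2 fold change of -0.08 (SE 0.04, adjusted p = 0.0935, limma). The gene Junos overlaps Jun on the opposite strand. Jun was the single member with a negative estimate, and with all libraries set to the same total it passed the threshold, at -0.09 (adjusted p = 0.03783, with 0.0378 to 0.233 over all alternative settings). Egr1 (gene number 13653, chromosome 18), a zinc finger factor of the immediate early response, spread from 2094.7 to 3013 in Rejuvenated Old around a range of 2084 to 2452 in Old MSCs, with a log2 fold change of 0.13 (SE 0.07, adjusted p = 0.1312, limma). Its lowest Rejuvenated Old libraries were replicates 4 and 3, and without either the difference passed, at 0.19 (adjusted p = 0.01902) without replicate 4 and 0.17 (adjusted p = 0.04254) without replicate 3, while the adjusted p ran from 0.019 to 0.335 over all alternative settings.

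Fosl2 (gene number 14284, chromosome 5, 32136472 to 32157840, plus strand) encodes FRA-2, an AP-1 subunit with roles in bone and fibrous tissue. Old libraries ran from 3179 to 3849.9 and Rejuvenated Old libraries from 3473 to 3975 normalized counts, so their ranges largely coincided, and the log2 fold change was 0.02 (SE 0.04, adjusted p = 0.7111, limma). Atf3 (gene number 11910, chromosome 1, 191170296 to 191183333, minus strand), a stress-induced partner of JUN proteins that can repress transcription, had 112 to 148 in Old and 103 to 162 in Rejuvenated Old MSCs, with a log2 fold change of 0.03 (SE 0.11, adjusted p = 0.8651, limma). Gm24748 overlaps Atf3 on the opposite strand. Fosb (gene number 14282, chromosome 7, 19302696 to 19310118, minus strand) was the least abundant member, with 32 to 62 reads in each Old or Rejuvenated Old library. Its log2 fold change was 0.06 (SE 0.14, adjusted p = 0.7581, limma), and at this depth counting alone gave a coefficient of variation of 14.5% in Old MSCs, where 19.02% was seen. A change of Fosb or Atf3 of the size of that in Junb was not detectable at these standard errors.

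**Figure D2:**
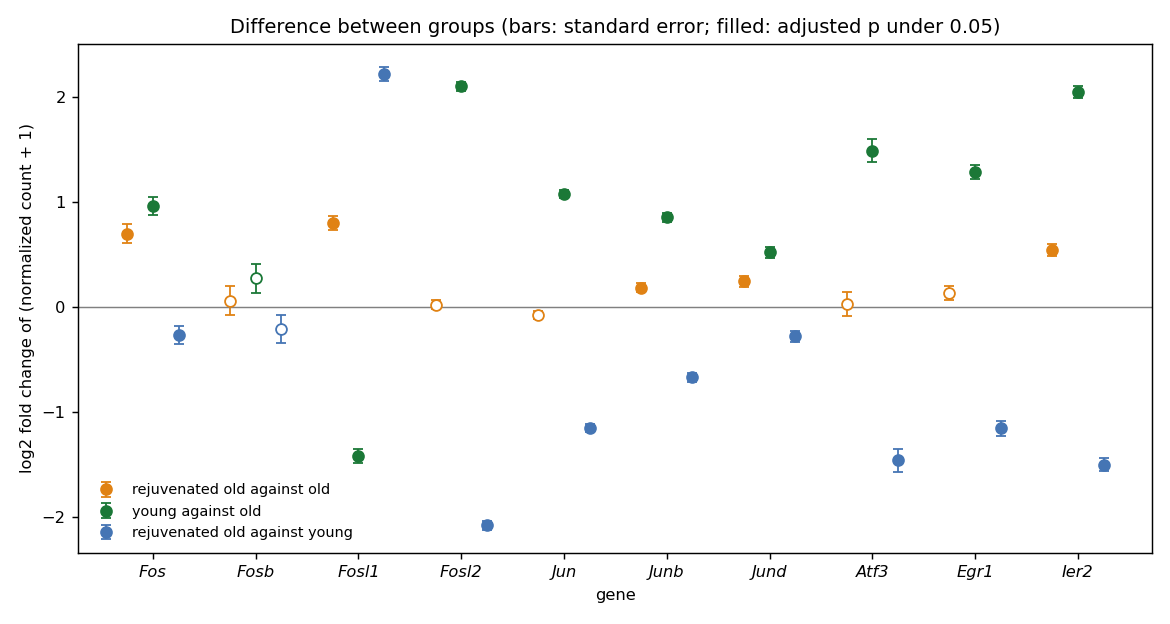
Log2 fold changes (y axis, of normalized count + 1) of the 10 members (x axis) in 3 comparisons, with standard errors from limma as bars and filled points for an adjusted p under 0.05. Fosl1 is positive in Rejuvenated Old against Old (0.80) and negative in Young against Old (-1.42), whereas Fosl2 is near 0 in the first (0.02) and at 2.10 in the other.

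The question of age is addressed by Young against Old MSCs, with the limits on the Young libraries given above. In Young MSCs 8 members were higher, by 1.44-fold for Jund up to 4.30-fold for Fosl2, and Fosl1 was lower. Over all genes tested, 41.6% were higher and 44.1% lower in this comparison, so that being called was common, while the 8 calls in 1 direction stood beside 41.6% of all genes. The groups did not overlap for 9 members, the exception being Fosb, where 73.9% of all genes tested did not overlap. The median log2 fold change of the members was 1.02, against -0.02 for all genes tested, and the median of absolute values was 1.18 against 0.60.

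Fosl2 had the largest difference, with 15134 to 16272 normalized counts in Young (median 15499) against 3179 to 3849.9 in Old MSCs (log2 fold change 2.10, SE 0.04, adjusted p = 3.176e-22, limma). Ier2 came next at 2.05 (SE 0.06, adjusted p = 2.766e-19). Atf3 stood at 312 to 434 in Young against 112 to 148 in Old MSCs, a log2 fold change of 1.49 (SE 0.11, adjusted p = 1.395e-11). In each of these genes the lowest Young library lay above the highest Old library by more than the range within either group.

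Egr1 ran from 5411 to 6188 normalized counts in Young (median 5597), far above Old MSCs, with a log2 fold change of 1.29 (SE 0.07, adjusted p = 2.671e-14, limma). Jun lay at 2693 to 2838 in Young MSCs and differed by 1.08 (SE 0.04, adjusted p = 5.529e-18). For Fos the difference was 0.96 (SE 0.09, adjusted p = 5.587e-10). The 2 other JUN genes differed less than Jun, with 0.85 for Junb (SE 0.05, adjusted p = 2.778e-14) and 0.52 for Jund (SE 0.05, adjusted p = 4.825e-09).

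Fosl1 went the other way. It was 2.67-fold lower in Young than in Old MSCs, with a log2 fold change of -1.42 (SE 0.07, adjusted p = 3.223e-15, limma). For Fosb, at 51.5 to 62.8 normalized counts in Young and 34.5 to 60.2 in Old MSCs, the log2 fold change of 0.27 did not pass (SE 0.14, adjusted p = 0.06811).

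Genes of some chromosomes differed together between Young and Old MSCs. Over all genes tested on a chromosome, the median log2 fold change was -0.69 for chromosome 1 (Atf3), -0.46 for chromosome 12 (Fos), -0.23 for chromosome 18 (Egr1), 0.15 for chromosome 8 (Ier2, Junb and Jund) and 0.61 for chromosome 7 (Fosb). It lay between -0.09 and -0.01 for chromosomes 4, 5 and 19, which carry Jun, Fosl2 and Fosl1. With these medians subtracted, 8 members were still higher, but Fosb was then lower in Young MSCs, at -0.33 (adjusted p = 0.02997, limma). The estimate of Fosb was positive under every other setting. Its adjusted p ran from 0.0242 to 0.189 over all alternative settings, whatever the sign, with the lowest at 0.35 without Old replicate 5. For co-cultured against Old MSCs the same medians lay between -0.04 and 0.06.

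In Rejuvenated Old against Young MSCs, 8 members were lower and Fosl1 was higher, where 41.5% of all genes tested were lower and 44.1% higher. This comparison shares libraries with both others and is given by its own values. Fosl1 was 4.66-fold higher in Rejuvenated Old than in Young MSCs (log2 fold change 2.22, SE 0.07, adjusted p = 6.429e-19, limma). The 8 lower members ranged from Fosl2 at -2.08 (adjusted p = 4.045e-22) to Fos at -0.26 (SE 0.09, adjusted p = 0.007875), and for Fos alone among the 9 called members the ranges of the groups overlapped, where 70.5% of all genes tested did not overlap. Ier2 was at -1.50 (adjusted p = 1.044e-16) and Jund at -0.28 (adjusted p = 5.078e-05). Fosb did not pass (-0.21, adjusted p = 0.1522).

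Levels of different members were compared as normalized counts per kilobase of the longest annotated transcript. Jund was the highest member in all 3 groups. Young MSCs had 3626 ± 138 (SD, n = 6), Rejuvenated Old MSCs 2993 ± 222 (SD, n = 6) and Old MSCs 2533 ± 237 (SD, n = 6). Fosb was the lowest, at group means of 12.5 to 14.9. In Young MSCs the order ran Jund, Fosl2, Ier2, Junb, Egr1, Jun, Atf3, Fos, Fosl1, Fosb, and the ranges of Junb and Egr1 and of Atf3 and Fos overlapped. In Old MSCs it ran Jund, Junb, Fosl2, Egr1, Ier2, Jun, Fosl1, Fos, Atf3, Fosb, and the neighbours from Fosl2 to Jun overlapped. In Rejuvenated Old MSCs Ier2 stood above Egr1 and Fosl2, with overlapping ranges, and Jun overlapped Fosl1. With the median transcript length, Fosl2 stood above Jund in Young MSCs, and Fosl1 moved from place 7 to place 4 in Old and to place 3 in Rejuvenated Old MSCs. With merged exons Fosl2 took place 6 in both, so the orders depend on the length used in all 3 groups.

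The makeup of the FOS family per kilobase differed between the groups. In Young MSCs Fosl2 held 90.2% ± 0.598 (SD, n = 6) of the family, against 66.1% ± 1.72 (SD, n = 6) for Old and 54.1% ± 1.91 (SD, n = 6) for Rejuvenated Old MSCs. The share of Fosl1 was 2.57% ± 0.139 (SD, n = 6) in Young MSCs, 21.7% ± 1.19 (SD, n = 6) in Old MSCs and 30.6% ± 1.81 (SD, n = 6) in Rejuvenated Old MSCs. For both genes the ranges of the 3 groups were separate. In the same order of groups Fos held 6.66%, 10.8% and 14.1%, with overlap between Old and Rejuvenated Old MSCs, and Fosb held at most 1.85% in any library. With all exons merged as the length, Fosl2 held 87.6%, 59.5% and 46.9%. With the median transcript length Fosl1 held 4.89%, 34.6% and 45.1% and Fosl2 86.1%, 52.9% and 40.1%, so which of them was higher in Rejuvenated Old MSCs depends on the length used.

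In the JUN family, Jund held 62.5% ± 1.11 (SD, n = 6) in Young MSCs, 69.0% ± 1.88 (SD, n = 6) in Old MSCs and 71.1% ± 1.28 (SD, n = 6) in Rejuvenated Old MSCs. Jun held 14.9%, 11.2% and 9.28%, with separate ranges in the 3 groups. Junb was at 22.6%, 19.8% and 19.6%, and its shares in Old MSCs overlapped those of both other groups. The shares of Jund overlapped between Old and Rejuvenated Old MSCs. These shares are of mRNA and say nothing of the protein dimers.

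**Figure D3:**
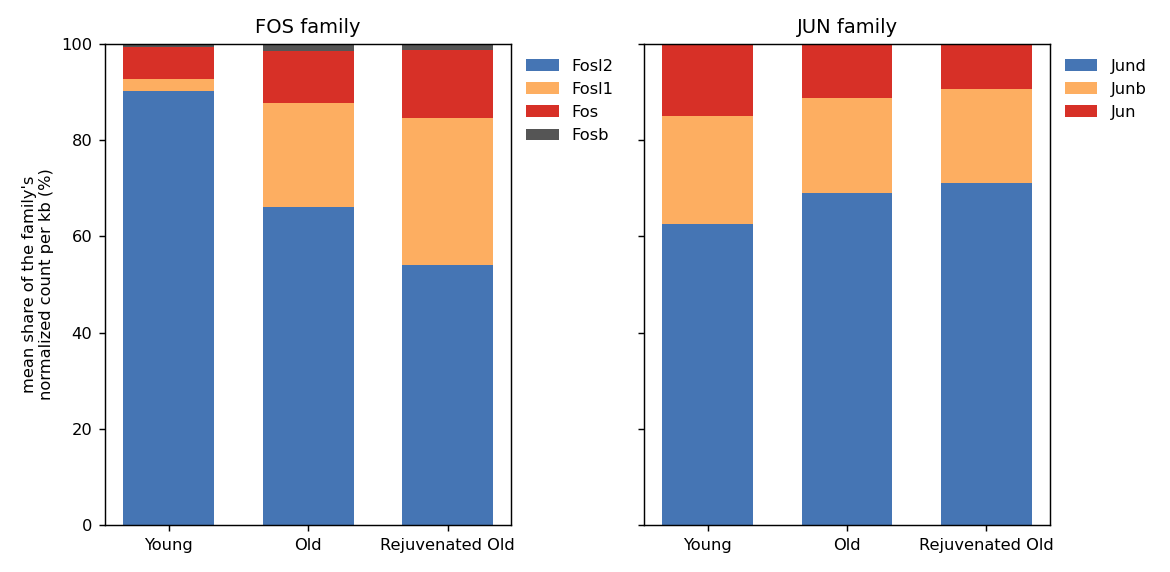
Mean share of each gene (stacked, y axis in %) in the summed normalized counts per kilobase of the FOS family (left) and the JUN family (right), for 6 libraries in each group. The share of Fosl1 is 2.57% for Young, 21.7% for Old and 30.6% for Rejuvenated Old MSCs, and Jund leads the JUN family in each group.

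Whether members deviated together between replicate cultures was tested for all 45 pairs, as the correlation of deviations from the group mean over 18 libraries. None passed after adjustment, and 5 had an unadjusted p under 0.05 (100000 permutations within groups). The largest r was that of Junb and Ier2, at 0.71 (Spearman rho 0.66, permutation p = 0.00823 and 0.013, adjusted p = 0.197 and 0.292), and 0.54 without the 2 libraries farthest from the median. For Fos and Egr1, r was 0.64 (Spearman rho 0.69, permutation p = 0.0106 and 0.00294, adjusted p = 0.197 and 0.132), and 0.51 without the 2 farthest libraries.

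The genes whose deviations were most like those of a member were picked as the highest r among all genes tested, which by itself makes r large, and are given as a description over the same 18 libraries. They were Fbxl16 for Fos (r = 0.83), Serpina3i (0.82) and the kinase gene Sik1 (0.79) for Fosl1, and Flrt1 for Ier2 (0.83). For Junb and Jund they were Zfp395 (0.88) and Nenf (0.86).

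The other genes of these pathways did not move as 1 block in co-culture. Over all genes tested, 21.0% were higher and 20.6% lower in Rejuvenated Old MSCs than in Old MSCs. Of 46 other immediate early genes tested, 17 were higher and 19 lower, with a median log2 fold change of -0.10. The largest changes were those of Egr3 (-1.41, adjusted p = 7.172e-07, limma) and Egr2 (-0.995, adjusted p = 1.200e-06), zinc finger relatives of Egr1, and of Sik1 (1.26, adjusted p = 8.617e-13) and Myc (1.06, adjusted p = 8.605e-12). Egr2 and Egr3 thus fell where Egr1 did not pass. In Young against Old MSCs, 26 of the 46 genes were higher and 14 lower, with a median of 0.38, beside 41.6% and 44.1% of all genes tested.

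Other basic leucine zipper genes encode proteins that can pair with AP-1 proteins or with each other. Beside 21.0% and 20.6% of all genes tested, 8 of 24 such genes were higher and 9 lower in co-culture, with a median of -0.10. Among those that rose were Maff (0.73, adjusted p = 1.327e-11, limma), Ddit3 (0.42, adjusted p = 0.0007994) and Atf5 (0.41, adjusted p = 8.905e-08). In Young against Old MSCs 13 of these genes were higher and 9 lower, beside 41.6% and 44.1% of all genes tested.

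Upstream of the members, 47 genes of growth factor receptors, MAP kinase cascades and serum response factors were tested. Beside 21.0% and 20.6% of all genes tested, 6 of the 47 were higher and 10 lower in Rejuvenated Old MSCs. Their changes were small, led by the kinase genes Mknk2 (-0.40, adjusted p = 1.376e-10, limma), Rps6ka2 (-0.32, adjusted p = 0.0008497), Map2k1 (0.29, adjusted p = 3.823e-07) and Map3k5 (0.27, adjusted p = 0.0007713). The 31 others did not pass. Of 20 inhibitors that MAP kinase signalling induces, or that limit it or EGR proteins, 5 were higher and 9 lower, beside the same shares of all genes. The called ones were led by the phosphatase genes Dusp9 (0.85, adjusted p = 0.002912, limma), Dusp5 (-0.68, adjusted p = 4.764e-06) and Dusp4 (-0.58, adjusted p = 4.075e-05), and by Spry4 (-0.47, adjusted p = 9.459e-06).

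In co-culture 21.0% of all genes tested were higher and 20.6% lower, with a median log2 fold change of 0.0081. Among 32 textbook targets of AP-1 and EGR1 tested, 11 were higher and 10 lower in Rejuvenated Old MSCs than in Old MSCs, with a median of -0.02. Those with the largest changes were Il6 (1.08, adjusted p = 0.004153, limma), at means of 14.6 and 30.5 normalized counts in Old and Rejuvenated Old MSCs, the collagenase gene Mmp13 (1.06, adjusted p = 4.905e-08), Mmp3 (0.62, adjusted p = 0.003478) and Pdgfb (-0.61, adjusted p = 0.00601). Mmp13 had a mean of 30.5 in Young MSCs, 5999 in Old MSCs and 12483 in Rejuvenated Old MSCs. In Young against Old MSCs, 9 of the 32 targets were higher and 21 lower, with a median of -0.51, beside 41.6% higher, 44.1% lower and a median of -0.02 for all genes tested. Of 16 heat shock and chaperone genes tested, 2 were higher and 4 lower in co-culture, beside 21.0% and 20.6% of all genes tested. The higher ones included Hspa5 (0.61, adjusted p = 5.195e-07, limma), which encodes a chaperone of the endoplasmic reticulum. The lower ones were led by Hspa1b (-0.59, adjusted p = 5.611e-08), Bag3 (-0.39, adjusted p = 4.521e-08) and Hsph1 (-0.20, adjusted p = 0.0006894).

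**Figure D4:**
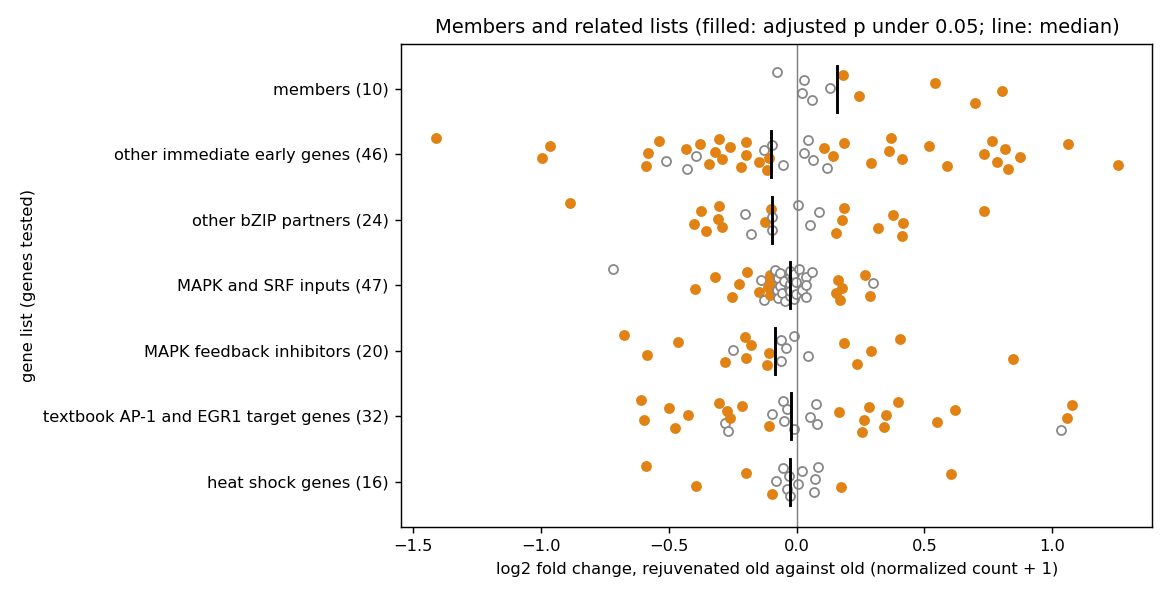
Log2 fold changes in Rejuvenated Old against Old MSCs (x axis, of normalized count + 1) of the 10 members and of 6 lists of related genes (rows, with the number tested), with filled points for an adjusted p under 0.05 and a line at the median. Called genes lie on both sides of 0 in each of the 6 lists, while the 5 called members are all positive.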

How the data were processed

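RNA-seq libraries of 18 MSC cultures were analysed. The authors aligned reads to mm10 with HISAT2, counted with StringTie and featureCounts, and normalized with DESeq2 (versions, annotation and strand setting are not given in the sources used here). The deposited signal per gene is the read count over 1 size factor per library, and whole reads came back for 100% of values within 0.001 of a read. Genes with a mean of at least 10 (14353) were tested as log2(value + 1) with limma 3.58.1 in R 4.3.3, with 3 group means and a mean-dependent prior variance (trend). This scale understates changes of low genes. Calls had a Benjamini-Hochberg adjusted p under 0.05. Recovered reads were also tested with edgeR 4.0.16 and DESeq2 1.42.0. On counts simulated for 14353 genes, young against old, limma recovered 89% of 200 changed genes, with 11 false calls. In the deposited data 12297 genes were called in Young against Old MSCs. Recovery with that many differing genes, or between Rejuvenated Old and Old MSCs, was not tested. Positions and promoters are from RefSeq GRCm38.p6, and strands, lengths and overlapping genes from GENCODE for GRCm38 (mm10). All 15 library pairs of each group differed by more than sampling noise (chi-square per degree of freedom 2.57 to 23.3).

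All members are named. From each of the 6 hand-written lists, some of which share genes, up to 4 called genes with the largest change in co-culture are named, and for likeness up to 3 genes a member. A gene that this rule would name is not reported here. Members and lists were chosen with earlier results of these data known. Alternatives covered pseudocount, filter, scaling, fit, test, threshold, chromosome medians, the replicate block and leaving out each library.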

Additional observations from a re-analysis of the deposited data

Results flagged for a closer look

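The markers Cd34 and Thy1 of Rejuvenated Old replicate 1 lay far above the other 5 libraries of the group, at 402 and 21.6 normalized counts. These markers were given this check after their values were seen, and chance alone sets about 1 in 20 groups apart in this way. What set this library apart was not tested, and the members' values without it stand beside the co-culture result.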

How the results depend on the processing

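Of 1020 values of single members under 34 alternative settings, 999 kept their direction and their side of the threshold. Many of these settings could not alter an estimate, since they changed only the spread, the threshold or a library outside the comparison. When changes also had to reach 0.5 on the log2 scale, 3 members were higher in Rejuvenated Old than in Old MSCs, Junb and Jund being lost. Under this rule 621 of all 14353 genes tested were higher and 618 lower. The number of members lower there was 1 (Jun) with all libraries set to the same total, and 0 to 1 when each library was left out in turn, the 1 being Jun without Old replicate 6 (-0.09, adjusted p = 0.04912, limma). With chromosome medians subtracted, the members lower in Young than in Old MSCs numbered 2 and the members higher in Rejuvenated Old than in Young MSCs numbered 2, the added one being Fosb in both, at -0.33 and 0.34. Fosb was higher in Young than in Old MSCs with the same total (0.34, adjusted p = 0.02518), with the same 75th percentile (0.31, adjusted p = 0.04191), with a single prior variance (0.27, adjusted p = 0.04427) and without Old replicate 5 (0.35, adjusted p = 0.02417), and lower in Rejuvenated Old than in Young MSCs with the same total (-0.30, adjusted p = 0.049). Estimates near 0 changed sign in Rejuvenated Old against Old MSCs when 1 library was left out, with ranges of -0.0229 to 0.134 for Fosb, -0.0160 to 0.0397 for Fosl2 and -0.0360 to 0.0923 for Atf3. Why these values moved was not tested.

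For replicates of the same number, no correlation of their deviations was over 0.1 (-0.15 to 0.07). Low correlations cannot show whether such replicates shared a donor or a cell preparation, which is not given in the sources used here. With the replicate number as a block, 5 members were higher and 0 lower in Rejuvenated Old against Old MSCs, 8 and 1 in Young against Old, and 1 and 8 in Rejuvenated Old against Young, as without it, and 5769 genes in all were called between Rejuvenated Old and Old MSCs, against 5971. Each library correlated best with its own number in 1 case of 6 at most. Depth limits Fosb, at 32 to 62 reads a library.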
